A study of Mus musculus with 3 samples.

Results

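The early proximal tubule (S1) cells were 1597 of the 22679 barcodes in 3 single-cell libraries of the mouse kidney. A barcode is the tag that marks one captured cell, and a unique molecular identifier (UMI) is the tag that marks one captured RNA molecule. An S1 cell had under 30% of its counts from mitochondrially encoded genes and at least 3 UMIs, summed over Slc5a2, Slc5a12, Slc6a19 and Nox4, with at least 2 of these 4 genes detected. It also had 0 UMIs of each of 8 exclusion genes, which were Slc7a13, Cyp7b1, Cyp4a14, Cntnap5a, Flt1, Emcn, Slc12a1 and Slc12a3. Among the exclusion genes, Slc7a13 and Cyp7b1 mark the late proximal tubule, Flt1 and Emcn mark endothelium, Slc12a1 marks the thick ascending limb and Slc12a3 the distal convoluted tubule. The set held 606 of 8615 young barcodes, 474 of 6027 aged barcodes and 517 of 8037 aged D+Q barcodes.

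S1 is the first convoluted stretch of the proximal tubule, where most of the filtered glucose, amino acids, bicarbonate and phosphate is taken back into the body. Its apical brush border carries sodium-coupled carriers such as SGLT2 (Slc5a2) for glucose, B0AT1 (Slc6a19) for neutral amino acids and NaPi-IIa (Slc34a1) for phosphate, and its basolateral side passes the solutes on through uniporters and exchangers. The cells also retrieve filtered protein through the megalin and cubilin receptors, activate vitamin D, make glucose, and burn fatty acids and lactate rather than glucose. The later segments, S2 and S3, carry more organic ion transporters and peroxisomal enzymes.

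All mice were male, and no genetic change is named in the labels. Young mice were 3 to 4 months of age, and both other groups were 20 months of age, the first given vehicle (aged) and the other given D+Q (aged D+Q). The labels do not spell D+Q out, and in ageing research the abbreviation usually stands for dasatinib and quercetin, a pair of compounds given to remove senescent cells. Each group was 1 library of collagenase-digested kidney made with a 3′ kit on the MobiCube platform, and no source used here gives the strain, the dose or the number of mice per library. Values below are given in the order young, aged and aged D+Q.

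With 1 library per group, no difference between groups could be tested against the spread between mice, and age, treatment, animal and library preparation cannot be told apart. Counts were therefore summed over the S1 cells of a library and divided by all counts of those cells and scaled to a total of 1000000, which is abbreviated CPM. A level carries an exact Poisson interval, a ratio of 2 levels an exact conditional binomial interval and a share of cells an exact Clopper-Pearson interval, all at 95%, and all cover counting error only. Ratios are on the log2 scale with 0.5 counts added to each sum, and the values in brackets after a ratio are its interval. A gene is called higher or lower when its ratio passed 1.5-fold, which is a statement about these libraries and not about the conditions.

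The S1 cells had a median of 2145, 1760.5 and 2138 UMIs per cell and summed to 1428441, 916473 and 1193435 UMIs. Thus 1 count stood for 0.700, 1.09 and 0.838 CPM, and the aged library was the shallowest. Mitochondrially encoded genes made up a median of 5.61%, 3.97% and 5.07% of a cell's counts, and Malat1, a long noncoding RNA kept in the nucleus, made up 19.3%, 15.5% and 17.2% of all S1 counts. The young and aged libraries shared 38 barcode sequences, young and aged D+Q shared 33, and aged and aged D+Q shared 28. Of these shared barcodes, 1, 1 and 0 were in the S1 set of both libraries. Scrublet's own threshold called 4, 4 and 2 doublets among all barcodes, too few to have worked, so doublets stayed in and an exclusion by score was tried as an alternative.

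The marker conditions alone were met by 3291, 2348 and 2911 barcodes, and the 8 exclusion genes then removed 81.6%, 79.8% and 82.2% of them. Slc7a13, an amino acid transporter of the last proximal segment, had a UMI in 45.2%, 53.2% and 58.5% of the barcodes that met the marker conditions. Slc12a1, the sodium-potassium-chloride cotransporter of the thick ascending limb, had one in 43.4%, 36.6% and 38.5%. Cyp4a14, a fatty acid hydroxylase switched on by the nuclear receptor PPARA, had one in 18.5% of such young barcodes but in 2.34% and 5.74% of the aged and aged D+Q barcodes. Most of these barcodes also held another exclusion gene, and Cyp4a14 was the only one in 68, 6 and 15 barcodes. The Cyp4a14 condition alone thus removed far fewer barcodes than these shares, though still the most in the young library.

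The S1 set made up 7.03% (6.50 to 7.59), 7.86% (7.20 to 8.57) and 6.43% (5.91 to 6.99) of all barcodes. Each share depends on depth in opposing ways, since a deeper barcode more easily reaches 3 marker UMIs and more easily shows an exclusion gene. When every barcode was first thinned at random to 1000 UMIs, 900, 722 and 908 barcodes met the rule, or 10.4%, 12.0% and 11.3%. The aged library had the highest share in both counts, while the order of young and aged D+Q was reversed.

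Slc5a12, the sodium-coupled lactate carrier, and Nox4, an NADPH oxidase that makes hydrogen peroxide, were the most abundant of the rule genes. Slc5a12 was at 5199, 7344 and 6344 CPM and Nox4 at 3060.0, 5005 and 3349 CPM. Slc5a2 was at 600.0, 482 and 524 CPM and Slc6a19 at 328, 314 and 239 CPM, and both were highest in the young library, where Slc5a12 and Nox4 were lowest. A cell held a median of 18, 23 and 20 UMIs of the 4 genes together. All 4 genes were detected in 34.8%, 22.4% and 25.1% of the cells. Only 24, 10 and 6 cells lay at the limit of 3 marker UMIs, against 35, 12 and 14 barcodes just outside it with 2 UMIs, and Slc34a1 was at 5440.1, 6988 and 4822 CPM in the former and 5067, 3215 and 3862 CPM in the latter. Another 7, 5 and 9 cells had 25 to 30% mitochondrial counts, against 6, 3 and 5 barcodes with 30 to 35% that were left out. These 4 genes chose the cells, so their levels are descriptions and support nothing.

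RNA of the rule genes was present outside the S1 set. After thinning to 1000 UMIs, Slc5a12 was found in 87.6, 94.7 and 95.9% of S1 cells and in 38.9, 51.9 and 35.4% of endothelial barcodes, which had at least 3 UMIs and 2 genes among Flt1, Emcn, Kdr and Pecam1. Without thinning those shares were 92.7, 96.8 and 98.5% and 53.5, 65.0 and 49.5%, at median depths of 2145, 1760.5 and 2138 UMIs and of 3470.0, 3531 and 3182 UMIs. Slc5a2 after thinning was found in 42.4, 38.8 and 40.8% of S1 cells and in 15.6, 12.2 and 9.05% of endothelial barcodes. Endothelial cells should lack both transporters, and the endothelial barcodes were not required to lack them, so doublets and free RNA cannot be told apart there. The shares in S1 cells were above these in every library, which the rule itself favours.

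**Figure D1:**
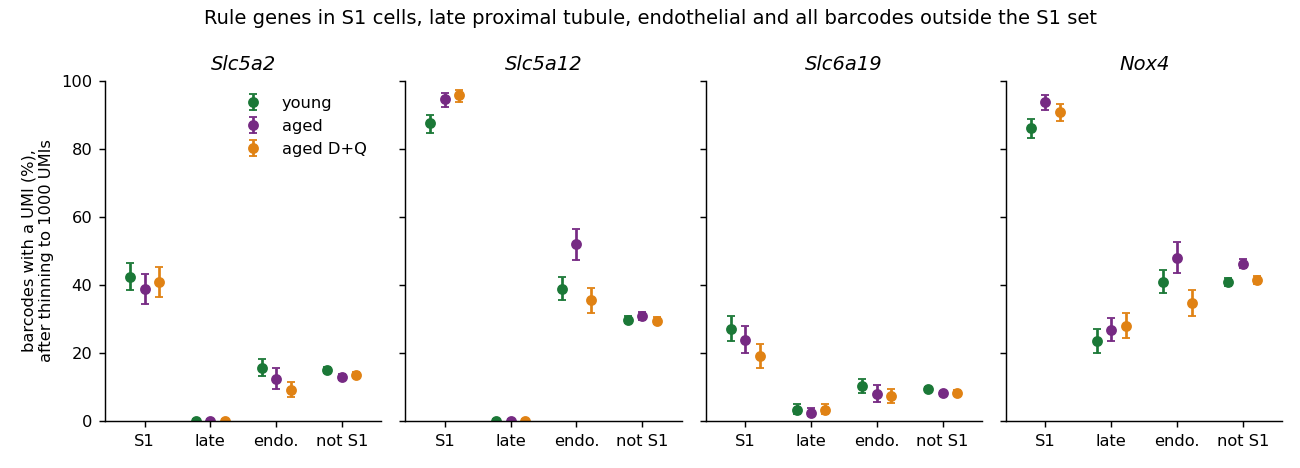
Share of barcodes with at least 1 UMI of each rule gene after thinning to 1000 UMIs (percent, linear axis from 0 to 100) in S1 cells, late proximal tubule barcodes, endothelial barcodes and all other barcodes under the mitochondrial limit; points are libraries and bars exact 95% Clopper-Pearson intervals. Slc5a12 and Nox4 lie between 86.3% and 95.9% in S1 cells of all 3 libraries, Slc5a2 between 38.8% and 42.4% and Slc6a19 between 19.0% and 27.1%, and Slc5a2 and Slc5a12 are at 0 in late proximal tubule barcodes because 0 UMIs of both were required there.

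The label was checked against genes outside the rule. S1 cells were set beside 603, 693 and 625 late proximal tubule barcodes, which had at least 3 UMIs and 2 genes among Slc7a13, Cyp7b1, Slc22a7 and Acsm3 and 0 UMIs of Slc5a2, Slc5a12, Flt1, Emcn, Slc12a1 and Slc12a3. Both sets were chosen by expression, so every contrast between them is a description without a test. No S2 barcodes were set apart, so the contrast is of early with late segments and does not separate S1 from S2. Of 10718 genes, 6.67% were at least 1.5-fold higher in S1 cells in all 3 libraries and 9.51% at least 1.5-fold lower.

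Against late barcodes, most of the early proximal tubule genes lay on the side the label names. Of 16 genes listed for the early segments outside the rule, 9 were at least 1.5-fold higher in S1 cells in all 3 libraries and 0 were lower in all 3. In the young library alone, 1 of them was at least 1.5-fold lower. Gatm, which makes the creatine precursor guanidinoacetate, was at 1483, 1424 and 1374 CPM in S1 cells and 106, 86.6 and 78.2 CPM in late barcodes. Slc7a7 and Slc7a8, light chains of basolateral amino acid exchangers, were at 515, 582 and 569.8 and at 289.8, 371 and 301 CPM, against 48.2, 60.7 and 62.2 and 26.0, 21.8 and 16.7 CPM. Adra1a, an adrenergic receptor, was at 258, 374 and 366 against 24.1, 15.7 and 21.1 CPM. Slc34a3, another sodium-phosphate cotransporter, was low, at 79.8, 79.7 and 74.6 CPM, against 9.28, 8.18 and 7.05 CPM, with log2 ratios of 3.06, 3.23 and 3.35. The phosphate carrier Slc34a1 was at 6458, 6777 and 6148 against 3147, 3639 and 4159.7 CPM, and its log2 ratio of 0.56 in the aged D+Q library fell just short of 1.5-fold. Within 1.5-fold in all 3 libraries were the receptors Lrp2 and Cubn, with ratios of -0.35, -0.08 and 0.20 and of 0.11, 0.22 and 0.20, and Pth1r with -0.08, -0.05 and 0.01.

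Segment S3 genes lay on the opposite side, with 0 of 9 higher and 7 lower in all 3 libraries. Ghr, the growth hormone receptor, was at 1678, 2356 and 1905 CPM in S1 cells and 8659, 11982 and 9263 CPM in late barcodes. Aadat, an aminotransferase of the kynurenine pathway, was at 65.1, 70.9 and 84.6 against 627, 700.2 and 631 CPM, and Atp11a, a phospholipid flippase, at 132, 177 and 151 against 1074, 1531 and 1173 CPM. Slc5a1, the glucose carrier SGLT1 of the last segment, was at 6.30, 8.73 and 10.1 against 22.3, 33.4 and 30.1 CPM. Slco1a6, an organic anion transporter, and Slc1a1, the glutamate carrier, were the 2 that did not pass 1.5-fold in every library, with log2 ratios of -1.21, -0.16 and -0.28 and of -0.61, -0.76 and -0.29. Of 8 measured segment S2 genes, 1 was at least 1.5-fold higher in S1 cells in all 3 libraries and 3 were lower.

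**Figure D2:**
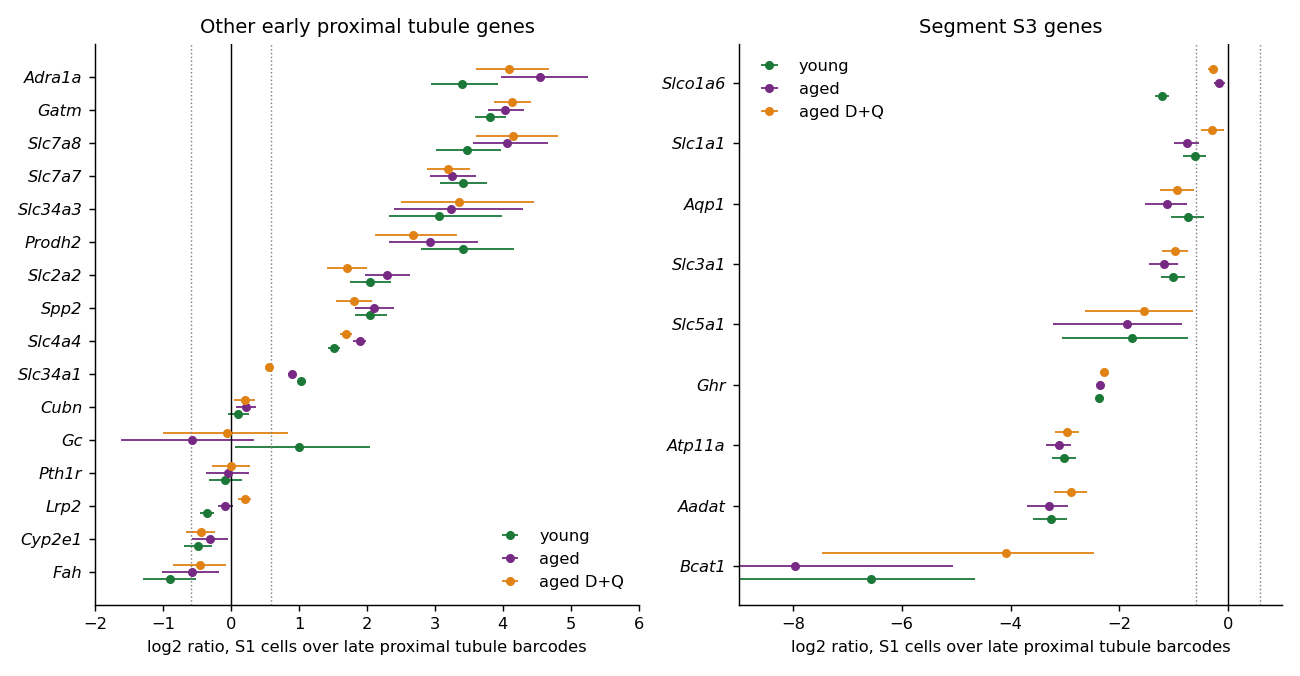
Log2 ratio of the level in S1 cells over that in late proximal tubule barcodes (x axis) for 16 early proximal tubule genes outside the rule and for 9 segment S3 genes, by library, with exact 95% conditional binomial intervals for counting error; dotted lines mark 1.5-fold, and Bcat1's intervals for young and aged run past the left edge. Gatm, Adra1a, Slc7a7 and Slc7a8 stand far to the right in all 3 libraries, while Ghr, Atp11a and Aadat stand to the left.

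Ranked by the smallest ratio over the 3 libraries, the genes farthest above the late barcodes included Agmo, Cyp27b1, Ablim3, Angpt1, Itpr2, Tbxas1, Dgkb, Acss1 and Rnf212b. Cyp27b1, the 1-alpha-hydroxylase that makes active vitamin D, was at 40.6, 49.1 and 78.8 CPM in S1 cells and at 0, 1.36 and 1.92 CPM in late barcodes. Angpt1, the ligand of the endothelial Tie2 receptor, was at 354, 449.6 and 415 against 17.9, 10.9 and 8.97 CPM. Agmo, which cleaves ether lipids, was at 230.3, 364 and 268 against 6.18, 5.45 and 1.92 CPM, and Acss1, a mitochondrial acetyl-CoA synthetase, at 174, 244 and 181 against 8.66, 5.45 and 10.3 CPM. The genes named here were at low level in late barcodes, so their order rests on few late counts.

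The genes farthest below the late barcodes were C8a, Rnf24, Slco4c1, Chrm3, Bcat1, Sox2ot, Kif20b, Myo5a, Ptn and Ido2. Rnf24, a RING finger protein, was at 19.6, 44.7 and 24.3 CPM in S1 cells against 799, 1139 and 659 CPM. Chrm3, a muscarinic acetylcholine receptor, was at 4.20, 9.82 and 9.22 against 218, 245 and 208 CPM. Slco4c1, an organic anion transporter, was at 1.40, 1.09 and 3.35 against 86.0, 107 and 83.3 CPM. Sox2ot overlaps Sox2, and no source used here says how reads of overlapping genes were counted.

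By level, the S1 libraries were led by Malat1, Kap, Gpx3, Slc34a1, Slc5a12, Fut9, Pde4d, Nox4, Zbtb20 and Ptprd, outside mitochondrial and ribosomal genes. Levels are UMIs of 3′ ends and were not divided by gene length. Kap, an androgen-driven kidney protein, was at 7719.6, 6011 and 8074 CPM, and Gpx3, the secreted glutathione peroxidase, at 8051, 5817 and 6248 CPM. Fut9, a fucosyltransferase, was at 3712, 4353 and 4012 CPM. Pde4d, Zbtb20 and Ptprd, a phosphodiesterase, a transcriptional repressor and a receptor phosphatase, were lowest in the young library, at 3236, 2795 and 2569.9 CPM, against 4409, 4181 and 3759 CPM in the aged library.

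The spread of counts among the S1 cells of a library was described gene by gene. After thinning to 1000 UMIs, the variance to mean ratio, which is 1 for pure counting noise, had a median of 1.06, 1.05 and 1.06 over 2999 genes, and 330, 349 and 358 of them exceeded 1.2. This ratio stays near 1 for genes with few UMIs per cell and rises with level. A value near 1 thus does not show that cells were alike. The ratio was highest for Malat1, also the gene with the highest level, at 27.0, 27.0 and 30.5. Mitochondrially encoded genes such as mt-Atp6 were at 7.57, 8.01 and 6.84. Gpx3 varied more in the aged and aged D+Q libraries, at 7.97 and 9.67, than in the young library, at 3.88. Spp1, which encodes osteopontin, was at 18.3 in the young library, where 460 of its 1809 counts came from 1 cell, and at 1.56 and 1.78 in the others. Slc5a12 was at 3.26, 2.84 and 2.61 and Nox4 at 2.69, 2.86 and 2.42. Slc18a1, a vesicular monoamine transporter, was at 2.42, 2.02 and 2.27 although its mean after thinning was under 1 UMI per cell.

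The transport genes that define S1 work were then read across the 3 libraries, as levels. Basolateral glucose exit through Slc2a2 (GLUT2) was at 299.6, 343 and 282 CPM. Slc5a10, an apical carrier of mannose and fructose, was at 35.7, 8.73 and 20.9 CPM, with a log2 ratio of -1.96 (-3.32 to -0.95) for aged over young on 8 aged counts. Slc2a5, the fructose carrier GLUT5, was at 71.4, 94.9 and 54.5 CPM. The other 4 measured glucose carriers, Slc5a11, Slc2a1, Slc2a9 and Slc2a12, lay between 6.55 and 61.1 CPM.

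Among carriers of sulfate, lactate and Krebs cycle acids, Slc13a1, the apical sodium-sulfate cotransporter, was the most abundant after Slc5a12, at 1020.0, 1613 and 1625 CPM, with a log2 ratio of 0.66 (0.56 to 0.77) for aged over young. Slc16a9, a carnitine and monocarboxylate carrier, was at 164, 280.4 and 239 CPM. Slc16a14, another member of the Slc16 family, was at 281, 246 and 402 CPM and stood higher in the aged D+Q library, at a log2 ratio of 0.71 (0.48 to 0.95) over aged. Slc5a8, the high-affinity lactate carrier of the later segments, was at 95.9, 97.1 and 57.0 CPM, against 721, 751 and 752 CPM in late barcodes. The remaining 10 measured members lay between 5.87 and 369.9 CPM. Of the 14 measured members, 2 were at least 1.5-fold higher and 2 at least 1.5-fold lower for aged over young, against 11.3% and 11.5% of all genes. Those lower were Slc16a11, at -0.69 (-1.73 to 0.20), and Slc25a10, at -0.63 (-1.27 to -0.06).

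Amino acid uptake at the brush border was read next. Cltrn (collectrin), which brings B0AT1 to the membrane, was at 1083, 1027 and 1032 CPM. Slc7a9 and Slc3a1, the light and heavy chains of the cystine transporter, were at 227, 319 and 277 and at 172, 168 and 178 CPM. The taurine carrier Slc6a6 was at 389.9, 406 and 406 CPM. Slc6a18, the neutral amino acid carrier of the later segments, was at 47.6, 36.0 and 36.0 CPM against 456, 392 and 344 CPM in late barcodes. Of the 12 apical members outside the rule, 1 was at least 1.5-fold higher in S1 cells than in late barcodes in all 3 libraries and 5 were lower. The list median of S1 over late was -0.58, -0.84 and -0.57. Among the 12 measured members, only the peptide carrier Slc15a2 passed 1.5-fold for aged over young, at 84.7, 49.1 and 45.2 CPM and a log2 ratio of -0.78 (-1.31 to -0.28). Over all genes, 11.3% were at least 1.5-fold higher and 11.5% at least 1.5-fold lower in that comparison. The other 6 measured members lay between 33.6 and 309.9 CPM.

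On the basolateral side, 6 of 10 amino acid transporters were higher in S1 cells than in late barcodes in all 3 libraries and 2 were lower. Beside Slc7a7 and Slc7a8, their shared heavy chain Slc3a2 was at 226, 165 and 180.2 CPM. Slc43a2 (LAT4) and Slc16a10 (TAT1), which release large neutral and aromatic amino acids, were at 334, 313 and 304 and at 238, 256 and 239 CPM. Slc7a2, a cationic amino acid transporter, was at 49.7, 52.4 and 46.9 CPM against 3.09, 1.36 and 3.20 CPM in late barcodes. Slc7a12 had 1, 13 and 16 counts, so its aged over young log2 ratio of 3.81 had an interval of 1.61 to 9.75. Slc7a12 was higher in the same direction in late barcodes, at 3.71, 168 and 193 CPM.

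Of the genes of phosphate and vitamin D handling, 1 of 15 was at least 1.5-fold higher in aged than in young, Nherf1, and 0 were lower. The shares over all genes were 11.3% and 11.5%. Slc34a1 had log2 ratios of 0.07 (0.02 to 0.12) for aged over young and -0.14 (-0.19 to -0.09) for aged D+Q over aged. Nherf1 and Pdzk1, which anchor it in the brush border, were at 42.0, 65.5 and 44.4 and at 413, 502 and 455 CPM, and Xpr1, the phosphate exporter, at 251, 304 and 334 CPM. Cyp24a1, which breaks active vitamin D down, was at 146, 202 and 258 CPM, and Cyp27b1, which makes it, also stood highest in the aged D+Q library, at a log2 ratio of 0.67 (0.15 to 1.23) over aged. The receptors Vdr, Kl and Pth1r, for vitamin D, FGF23 and parathyroid hormone, were at 197, 159 and 186, at 329, 296 and 319 and at 179.9, 151 and 161 CPM. The remaining 5 measured members lay between 25.2 and 86.2 CPM.

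For sodium and bicarbonate, the basolateral cotransporter Slc4a4 was at 2490.1, 3130.5 and 2693 CPM and the apical exchanger Slc9a3 (NHE3) at 141, 171 and 178 CPM. Of the carbonic anhydrases, Car12 was at 676, 723 and 582 CPM, Car2 at 300.3, 248 and 213 CPM, and the membrane-bound Car4 at 92.4, 50.2 and 72.9 CPM. Car4 was lower in the aged library, at a log2 ratio of -0.87 (-1.40 to -0.39). Agtr1a, the angiotensin II receptor, was at 84.0, 52.4 and 97.2 CPM. Its lowest level was in the aged library, with ratios of -0.67 (-1.20 to -0.19) against young and 0.88 (0.39 to 1.41) for aged D+Q over aged. The other 11 measured members lay between 39.9 and 967 CPM.

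Aged was then compared with young over all genes. In S1 cells 11.3% of 9470 genes were at least 1.5-fold higher in the aged library and 11.5% at least 1.5-fold lower, and the median log2 ratio of all genes was 0.05. Every count below is to be read against these shares. 0 of the 16 early proximal tubule genes passed 1.5-fold in either direction, and their median was 0.12.

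In the endocytic apparatus, 2 of 16 measured members were at least 1.5-fold higher and 2 at least 1.5-fold lower in the aged library, close to the shares over all genes, with a median of 0.27. Dab2, the adaptor that couples megalin to clathrin, was at 1712, 2890.4 and 2448 CPM, with a log2 ratio of 0.76 (0.68 to 0.84). Lrp2 (megalin) was at 875, 1212 and 1271 CPM and Cubn (cubilin) at 459, 679 and 568 CPM, with ratios of 0.47 (0.35 to 0.59) and 0.56 (0.40 to 0.72). Amn, which carries cubilin to the surface, was at 225, 145 and 146 CPM, and Lrpap1, the chaperone of megalin, at 316, 197 and 252 CPM. Their ratios were -0.63 (-0.94 to -0.34) and -0.68 (-0.94 to -0.43). In the barcodes outside the S1 set, these ratios were 0.65, 0.42, 0.60, -0.25 and -0.19 in the same order.

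Organic ion transporters were spread widely. Of the 25 measured, 4 were higher and 3 lower. Slco1a6, an anion transporter that is usually strongest in S3, was at 484, 1361 and 1274 CPM, with a log2 ratio of 1.49 (1.35 to 1.63), and 316, 385 and 433 S1 cells held a UMI of it. The late barcodes gave 0.45 and all barcodes outside the S1 set 0.69. Abcc4, an efflux pump, was at 99.4, 176 and 137 CPM, and Slc22a28, an organic anion transporter, at 505, 833 and 737 CPM. Slc22a6 (OAT1) was lower in the aged library, at 164, 100.4 and 118 CPM, as was Slco1a1, at 72.1, 41.5 and 40.2 CPM. Slco1a1 and Slco1a6, like the Slc22a28, Slc22a29 and Slc22a30 genes, have close relatives whose reads the authors' counting could have split between them. Slc22a8 (OAT3) and Slc47a1 (MATE1) were at 174, 199.7 and 207 and at 512, 508 and 530.4 CPM.

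Several PPARA target genes stood lower in the aged library. In the list of fatty acid oxidation genes and PPARA targets, 2 of 31 measured members were at least 1.5-fold higher and 6 at least 1.5-fold lower, and the median was -0.16. Ehhadh, the peroxisomal bifunctional enzyme, was at 168, 62.2 and 115 CPM, with a log2 ratio of -1.42 (-1.88 to -1.01). Cyp4a10, a fatty acid omega-hydroxylase, was at 106, 50.2 and 62.8 CPM and -1.06 (-1.58 to -0.59), and Vnn1, a pantetheinase, at 42.0, 12.0 and 25.1 CPM and -1.76 (-2.88 to -0.87). Outside the S1 set Ehhadh was lower too, at -1.81, while Vnn1, at -0.48, lay within 1.5-fold. Cpt1a, the gate of mitochondrial fatty acid entry, was higher, at 97.3, 160.4 and 117 CPM and 0.72 (0.38 to 1.07), and so was Cyp4a12a, a male-biased hydroxylase with a near-identical copy, at 18.9, 45.8 and 79.6 CPM. Ppara itself was at 445, 524 and 558 CPM. Cyp4a14 of this list was an exclusion gene, and its UMIs removed barcodes most often in the young library. With Cyp4a14 and Cntnap5a not used for exclusion, the list median was -0.23.

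Of the nuclear-encoded genes of the respiratory chain, 0 of 30 measured members were at least 1.5-fold higher and 4 at least 1.5-fold lower in the aged library. The share lower was near that over all genes. The median was -0.29, against 0.02 in late barcodes and -0.04 outside the S1 set. Cox7c, of complex IV, was at 513, 304 and 332 CPM, with a log2 ratio of -0.75 (-0.96 to -0.55). Atp5e and Atp5o, of the ATP synthase, were at 189, 113 and 88.8 and at 189, 118 and 102 CPM, with ratios of -0.73 (-1.08 to -0.40) and -0.68 (-1.02 to -0.35). Ndufs1, a core subunit of complex I, was at 119.7, 141 and 139 CPM and 0.24 (-0.11 to 0.57). Mitochondrially encoded counts were also lower in these cells, with medians of 5.61%, 3.97% and 5.07%. With those genes left out of the total, the list median was -0.32. It ranged from -0.36 to -0.14 over the alternatives tried.

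In glucose production, 0 of 15 measured members were at least 1.5-fold higher and 1 at least 1.5-fold lower. The exception was Pck1, the committed enzyme of gluconeogenesis, at 1111, 511 and 563 CPM and a log2 ratio of -1.12 (-1.27 to -0.97). G6pc, which frees glucose at the last step, was at 648, 549 and 714 CPM, and Fbp1 at 502, 540.1 and 495 CPM. Pck1 was lower outside the S1 set as well, at -0.82. Among the 21 measured genes of amino acid and ammonia metabolism, 0 were higher and 1 lower, the latter being Hpd, of tyrosine breakdown, at 46.2, 25.1 and 23.5 CPM.

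Transcription factors of the nephron were on the higher side in the aged library. In this list 4 of 18 measured members were at least 1.5-fold higher and 0 at least 1.5-fold lower. The median was 0.37, against 0.12 in late barcodes and 0.25 outside the S1 set. Foxo3 was at 84.7, 141 and 112 CPM, Esrrg, an oestrogen-related receptor that drives mitochondrial genes, at 1197, 1889.8 and 1540.1 CPM, and Cux1 at 235, 364 and 288 CPM. Hnf4a, the regulator of proximal tubule identity, was at 144, 163 and 165 CPM and 0.18 (-0.13 to 0.49).

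Of genes tied to senescence and survival, 4 of 16 measured members were at least 1.5-fold higher and 0 at least 1.5-fold lower. The median was 0.26, against 0.31 in late barcodes and 0.19 outside the S1 set. Ccnd1 (cyclin D1) was at 71.4, 144 and 163 CPM, with a log2 ratio of 1.01 (0.63 to 1.40). The survival genes Bcl2 and Bcl2l2 were at 38.5, 75.3 and 89.7 and at 15.4, 29.5 and 22.6 CPM, with ratios of 0.96 (0.44 to 1.51) and 0.93 (0.07 to 1.82), and Gdf15, a stress hormone, at 11.2, 17.5 and 9.22 CPM on 16, 16 and 11 counts. Cdkn2a, which encodes p16, had 0 counts in all 3 libraries, which allows up to 2.10, 3.27 and 2.51 CPM at 3 counts. Cdkn1a, which encodes p21, had 3, 5 and 2 counts and was below the floor for a ratio.

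Injury genes that overlap with urothelial markers were among those lower in the aged library. In the list 3 of 15 measured members were at least 1.5-fold higher and 8 at least 1.5-fold lower in the aged library, with a median of -1.07. Krt18, Krt19 and S100a6, which are also abundant in urothelium, had 37, 28 and 153 counts in young and 1, 3 and 11 in aged. When S1 cells with any UMI of 6 urothelial markers, Krt19 and S100a6 among them, were left out, an alternative chosen after seeing the data, 9 of the 15 members could be measured and their median was -0.07. Krt19 and S100a6 drop out by construction, so the medians are over different genes and the part of urothelial RNA in the list was not tested. Spp1 was the most abundant member, at 1266, 562 and 667 CPM, with a ratio of -1.17 (-1.32 to -1.03) and of -0.84 outside the S1 set, and 460 of its 1809 young counts were in 1 cell. Il34, the ligand of the macrophage receptor Csf1r, was at 9.80, 45.8 and 42.7 CPM, with a ratio of 2.19 (1.32 to 3.21). Vcam1, an adhesion molecule, had 12, 20 and 6 counts, and 16 of the aged ones were in 1 cell. Havcr1 and Lcn2, the usual markers of acute injury, had 0, 1 and 0 and 1, 0 and 0 counts.

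The antioxidant genes held Gstm1, a glutathione transferase with close relatives, at 145, 51.3 and 46.1 CPM and a log2 ratio of -1.49 (-1.99 to -1.04), and Cyba, the partner subunit of Nox4, at 369.6, 216 and 230.4 CPM and -0.77 (-1.02 to -0.54). The other 17 measured members lay within 1.5-fold. In the list of interferon and antigen presentation genes 1 of 11 measured members were at least 1.5-fold higher and 1 at least 1.5-fold lower, in that of immediate early and heat shock genes 0 of 8 were higher and 1 lower, and in that of circadian genes 3 of 15 were higher and 2 lower. Of the male-biased proximal tubule genes, 2 of 9 were higher, Cyp4a12a and Cyp2j13, a P450 at 233, 525 and 494 CPM and a ratio of 1.17 (0.97 to 1.38), and 2 were lower, Slco1a1 at -0.79 and Acsm3 at -0.81. Of the 4 genes listed as female-biased, Slc7a12 was higher and Prlr, the prolactin receptor, lower, at 44.8, 16.4 and 18.4 CPM and -1.42 (-2.37 to -0.63).

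**Figure D3:**
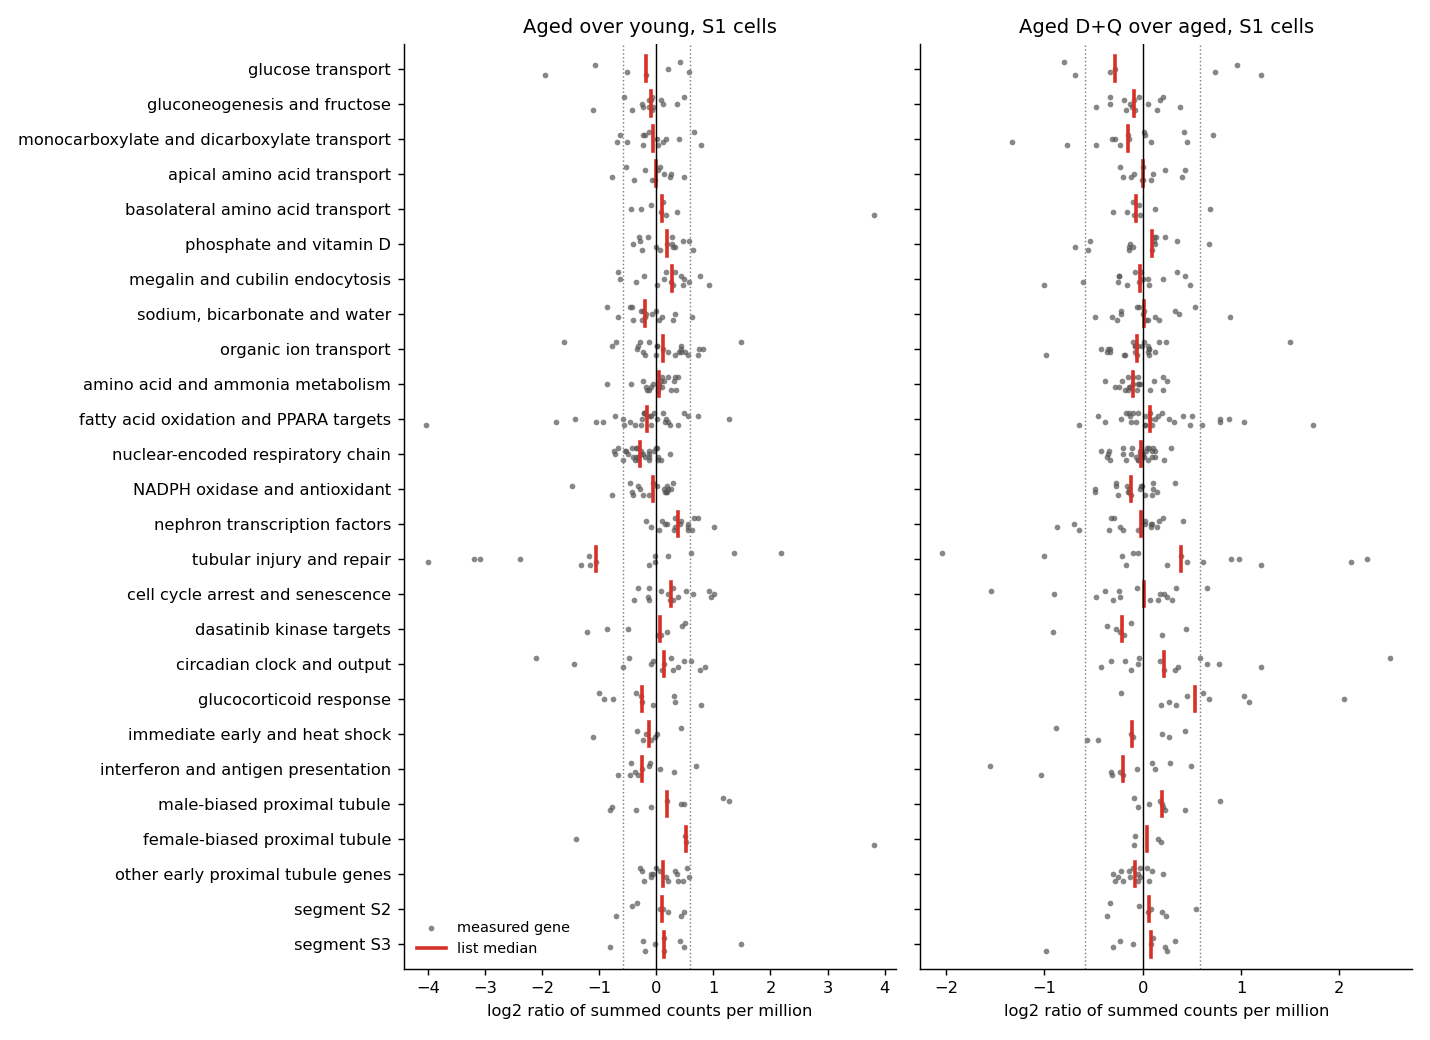
Log2 ratios in S1 cells for the measured members of 26 gene lists (1 point per gene, x axis), aged over young at left and aged D+Q over aged at right; red bars are list medians, dotted lines mark 1.5-fold, and each point compares 1 library with 1 library. At left the early proximal tubule genes all lie inside the dotted lines, the respiratory chain genes lie mostly left of 0 and injury genes spread widest; at right the glucocorticoid response genes lie mostly right of 0.

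Genes were also named by size alone, among those whose interval lay beyond 1.5-fold and whose higher library had 20 counts and 30 CPM or more. Those with the largest ratios for aged over young were Slpi, Nrxn3, Cacnb4, Dgkb, Pcdh11x, Ubash3b, Il34, Cyp2d12, Nrg1 and C1qtnf3. Some rested on few cells. Slpi, a secreted protease inhibitor, had 0, 31 and 3 counts, and 26 of the 31 aged counts were in 1 cell. The aged level was at least 16.1-fold higher than young, taking 3 counts as the limit that 0 allows and the aged count as measured, and the interval of the log2 ratio begins at 3.62. Pcdh11x, a protocadherin, had 22 of its 34 young counts in 1 cell. Others were spread over many cells. Cyp2d12, a P450 of a family with near-identical members, was at 114, 486 and 649 CPM in 75, 246 and 332 cells, with a ratio of 2.09 (1.83 to 2.36). Nrg1 (neuregulin), a ligand of ErbB receptors, was at 61.6, 194 and 160.0 CPM in 68, 115 and 124 cells, with 1.65 (1.28 to 2.04). Dgkb, a diacylglycerol kinase, was at 40.6, 243 and 117 CPM, with 2.57 (2.16 to 3.03), and Nrxn3, a neurexin, had 10, 77 and 75 counts. Without exclusion genes, Nrxn3 gave 1.05, Cacnb4 0.84 and Nrg1 1.15.

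The genes with the largest ratios in the other direction were Sprr1a, Upk3a, Psca, Upk1b, Ly6d, S100a6, Car3, Pcdh9, Gulp1 and Gpc5. Upk3a and Upk1b encode uroplakins of the bladder and ureter lining, and Sprr1a, Psca, Ly6d and S100a6 are also made by lining epithelia. Upk3a had 57, 0 and 13 counts, which puts young at least 12.2-fold higher than aged by the same limit, and the interval of the log2 ratio ends at -3.26. Car3, a carbonic anhydrase of fat and muscle, had 117, 9 and 12 counts, and 23 of the young ones were in 1 cell. Pcdh9 had 50, 4 and 54, Gulp1 51, 6 and 13 and Gpc5 66, 8 and 14 counts, with up to 14, 7 and 18 in a single young cell. Without exclusion genes these 3 gave -0.39, -0.34 and -0.41, none past 1.5-fold.

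Most of these differences were seen outside the S1 set too. The barcodes outside it include 2685 young, 1874 aged and 2394 aged D+Q barcodes that met the marker conditions but held an exclusion gene. They are thus not only barcodes of other cell types. Of the 10 genes named as higher, 8 were also at least 1.5-fold higher in the barcodes outside the S1 set and 9 in endothelial barcodes. Of the 10 named as lower, 7 were also lower outside it. Cyp2d12 gave 2.27 and Nrg1 1.18 there. Cacnb4, a calcium channel subunit, and C1qtnf3 did not pass 1.5-fold outside the S1 set, with 0.33 and 0.24 against 2.70 and 1.62 in S1 cells. In endothelial barcodes Cacnb4 gave 0.84 and C1qtnf3 0.26. Cacnb4 was at 130, 234 and 139 CPM in endothelial barcodes, above its 10.5, 69.8 and 6.70 CPM in S1 cells. Whether free RNA or doublets carried such differences between cell types was not tested.

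Aged D+Q was compared with aged in the same way. In S1 cells 8.85% of 9470 genes were at least 1.5-fold higher in the aged D+Q library and 8.9% at least 1.5-fold lower, with a median log2 ratio of -0.02. Of the 16 early proximal tubule genes 0 passed 1.5-fold, and of the 30 respiratory chain genes 0 did. Both comparisons use the aged library, so a gene that happened to be low there appears lower in the one and higher in the other.

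Genes induced by glucocorticoids stood higher in the aged D+Q library. In this list 5 of 10 measured members were at least 1.5-fold higher and 0 at least 1.5-fold lower, with a median of 0.53, against 0.46 in late barcodes and 0.43 outside the S1 set. Sgk1, the kinase that raises sodium transport, was at 54.6, 28.4 and 119 CPM in 64, 22 and 94 cells, with a log2 ratio of 2.05 (1.46 to 2.73) over aged and 1.12 (0.72 to 1.54) over young. Tsc22d3 (GILZ), an anti-inflammatory mediator, was at 58.8, 49.1 and 105 CPM, with 1.08 (0.59 to 1.62) over aged. Zbtb16, a zinc finger repressor, was at 89.6, 74.2 and 152 CPM, with 1.02 (0.62 to 1.46). Errfi1, an inhibitor of the EGF receptor, was the most abundant, at 1608, 1258 and 1924 CPM, with 0.61 (0.51 to 0.72), and the metallothionein Mt1 was at 125, 73.1 and 117 CPM. Fkbp5, a chaperone of the receptor, did not pass 1.5-fold over aged, at 132, 226 and 287 CPM and 0.34 (0.09 to 0.60). The receptor gene Nr3c1 was at 129, 189.9 and 184 CPM. The median was 0.26 when no exclusion gene was used.

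Clock genes were read beside them. In this list 4 of 15 measured members were at least 1.5-fold higher and 0 at least 1.5-fold lower, with a median of 0.22, which turned to -0.026 when no exclusion gene was used. Arntl (BMAL1), the positive arm of the clock, had 30, 4 and 33 counts, or 21.0, 4.36 and 27.7 CPM, with a log2 ratio of 2.52 (1.17 to 4.62). Its partner Npas2 had 17, 7 and 22 counts. Per2, on the negative arm, was at 87.5, 113 and 146 CPM, and the output factor Dbp at 25.2, 24.0 and 19.3 CPM. Outside the S1 set Arntl gave 0.60 and Npas2 1.39. No source used here gives the hour of tissue collection.

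Of the fatty acid oxidation genes and PPARA targets, 6 of 31 measured members were at least 1.5-fold higher and 1 at least 1.5-fold lower in the aged D+Q library, and the median was 0.07. Ehhadh stood at 115 CPM against 62.2 CPM in aged, a log2 ratio of 0.88 (0.43 to 1.36), and was below the young level of 168 CPM. Vnn1 had 30 against 11 counts, and Cyp4a12a was at 79.6 against 45.8 CPM. Acsl1, which activates long-chain fatty acids, was at 276, 187 and 261 CPM, with a ratio of 0.48 (0.21 to 0.76) that did not reach 1.5-fold. In late barcodes Ehhadh was at 595, 123 and 326 CPM, the same order of libraries as in S1 cells.

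**Figure D4:**
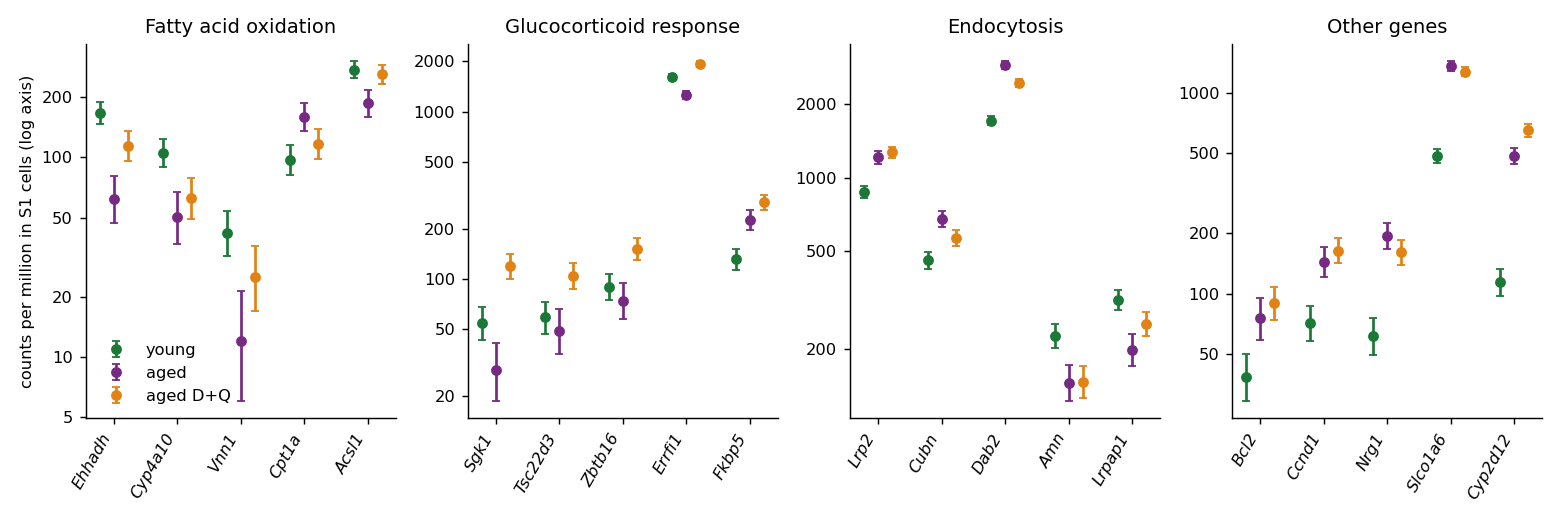
Levels of 20 genes in S1 cells (CPM, log axis) in the 3 libraries, grouped as fatty acid oxidation, glucocorticoid response, endocytosis and other genes; points are libraries and bars exact 95% Poisson intervals. Ehhadh is at 168, 62.2 and 115 CPM and Sgk1 at 54.6, 28.4 and 119 CPM, both lowest in aged, and Slco1a6 and Cyp2d12 are lowest in young.

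Nephron transcription factors held 0 of 18 higher and 3 lower in the aged D+Q library. In the injury list 6 of 15 measured members were at least 1.5-fold higher and 2 at least 1.5-fold lower. Its median was 0.39, and -0.09 over the 9 members measured once cells with urothelial UMIs were left out. In the senescence and survival list 1 of 16 measured members were at least 1.5-fold higher and 2 at least 1.5-fold lower. Ccnd1 was at 163 CPM against 144 CPM, a ratio of 0.18 (-0.14 to 0.51), and Bcl2 at 89.7 against 75.3 CPM. Of the transport lists, glucose carriers had 3 and 2 of 7 higher and lower, and the list median turned sign under 2 alternatives. The numbers were 1 and 2 of 14 for carriers of monocarboxylates and dicarboxylates, 1 and 1 of 25 for organic ions and 0 and 0 of 12 for apical amino acids. They were 1 and 0 of 8 for basolateral amino acids, 1 and 1 of 15 for phosphate and vitamin D, 1 and 0 of 17 for sodium and bicarbonate, and 0 and 2 of 16 for endocytosis.

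The genes named by the size rule as higher in aged D+Q were Pcdh9, Csmd1, Sgk1, Cenpv, Apmap, Trdn, Brd1, Tbx2, Crebzf and Ackr3. Csmd1, a large transmembrane protein, had 70, 15 and 107 counts, and 45 of the aged D+Q ones were in 1 cell, as were 22 of 54 for Pcdh9. Brd1, a chromatin reader, was spread over 57, 45 and 152 cells at 41.3, 50.2 and 152 CPM, with a log2 ratio of 1.58 (1.12 to 2.10). Tbx2, a T-box repressor, was at 46.9, 30.6 and 75.4 CPM, and Ackr3, a scavenging receptor for the chemokine Cxcl12, at 67.2, 43.6 and 96.4 CPM. Apmap, a membrane hydrolase, was at 43.4, 10.9 and 36.0 CPM, its aged level resting on 10 counts. Of these 10 genes 6 were also at least 1.5-fold higher outside the S1 set, where Brd1 gave 1.85, Sgk1 1.26 and Apmap 0.22. Without exclusion genes Sgk1 gave 1.12, Trdn 0.65, Apmap 0.57, Ackr3 0.53, Pcdh9 0.26 and Csmd1 -0.12, the last 4 within 1.5-fold.

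Genes that met the rule as lower included Slpi, Cacnb4, Usp29, H2-Aa, Chrna4 and Dgkb. Chrna4, a nicotinic receptor subunit, was at 57.4, 76.4 and 33.5 CPM in 74, 60 and 36 cells, with a log2 ratio of -1.18 (-1.79 to -0.61). Cacnb4 was at 10.5, 69.8 and 6.70 CPM, with -3.30 (-4.65 to -2.32). Dgkb was at 117 against 243 CPM, between aged and young. H2-Aa, a class II antigen presenting chain of immune cells, had 29, 30 and 13 counts, beside 143, 65 and 71 counts of the 8 leukocyte markers. Of the 7 genes that met the rule, 4 were also at least 1.5-fold lower outside the S1 set, where Slpi gave -4.09. Cacnb4, Chrna4 and Dgkb did not pass 1.5-fold there, at -0.25, -0.11 and 0.01, while Cacnb4 gave -0.75 in endothelial barcodes.

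Aged D+Q over young had 8.53% of genes at least 1.5-fold higher and 10.5% lower. The named genes were Nrxn3, Pcdh11x and Cyp2d12 as higher, at log2 ratios of 3.11, 2.64 and 2.50, and Upk1b, Sprr1a and Cxcl10 as lower. Cxcl10, an interferon-induced chemokine, had 46 of its 50 young counts in 1 cell. Slco1a6 stood at 1.39 (1.26 to 1.53), Ccnd1 at 1.19 (0.84 to 1.55) and Bcl2 at 1.21 (0.74 to 1.72). This comparison shares the young library with aged over young. Pck1 stood at -0.98 (-1.11 to -0.85) and Gstm1 at -1.64 (-2.11 to -1.22). Of the glucocorticoid genes 6 of 10 were higher and 1 lower, of the respiratory chain genes 0 and 4 of 30, and of the injury genes 1 and 8 of 15. The median of the glucocorticoid list was 0.67 in S1 cells, against -0.01 in late barcodes and 0.31 outside the S1 set.

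Markers of other cell types were summed in the S1 cells, since the RNA of some of these types differed between the libraries compared above. Urothelial markers (6 genes) were at 242, 17.5 and 46.9 CPM, with a UMI in 189, 12 and 48 cells, and at 362, 40.6 and 111 CPM in the barcodes outside the S1 set. Upk3a and Krt5 were at 0 in aged, and Krt5 in aged D+Q. Adipocyte markers (4 genes) were at 37.1, 6.55 and 3.35 CPM, and in aged D+Q 3 of them, Adipoq, Plin1 and Cidec, were at 0. Leukocyte markers (8 genes) were at 100.1, 70.9 and 59.5 CPM, with 74, 9 and 13 of 143, 65 and 71 counts in 5 cells of each library, intercalated cell markers (6 genes) at 67.2, 58.9 and 23.5 CPM and podocyte markers (5 genes) at 28.0, 27.3 and 10.9 CPM. All of these were highest in the young library, though the young and aged intervals overlapped for leukocyte, intercalated cell and podocyte markers. Their part in the aged over young and aged D+Q over young results was not tested.

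Thick ascending limb markers were the most abundant foreign signal, at 718, 635 and 752 CPM, with a UMI in 75.4, 63.5 and 77.0% of S1 cells, although Slc12a1 was at 0 by the rule. They were at 2817, 2477 and 2779 CPM outside the S1 set and were close to one another across libraries. Haemoglobin genes (4 genes) were at 74.9, 84.0 and 95.5 CPM against 349, 597 and 306 CPM outside. Endothelial markers were at 60.2, 42.6 and 35.2 CPM, with Flt1 and Emcn at 0 by the rule, and stromal markers at 65.1, 40.4 and 39.4 CPM, with Lum at 0 in all 3 libraries.

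**Figure D5:**
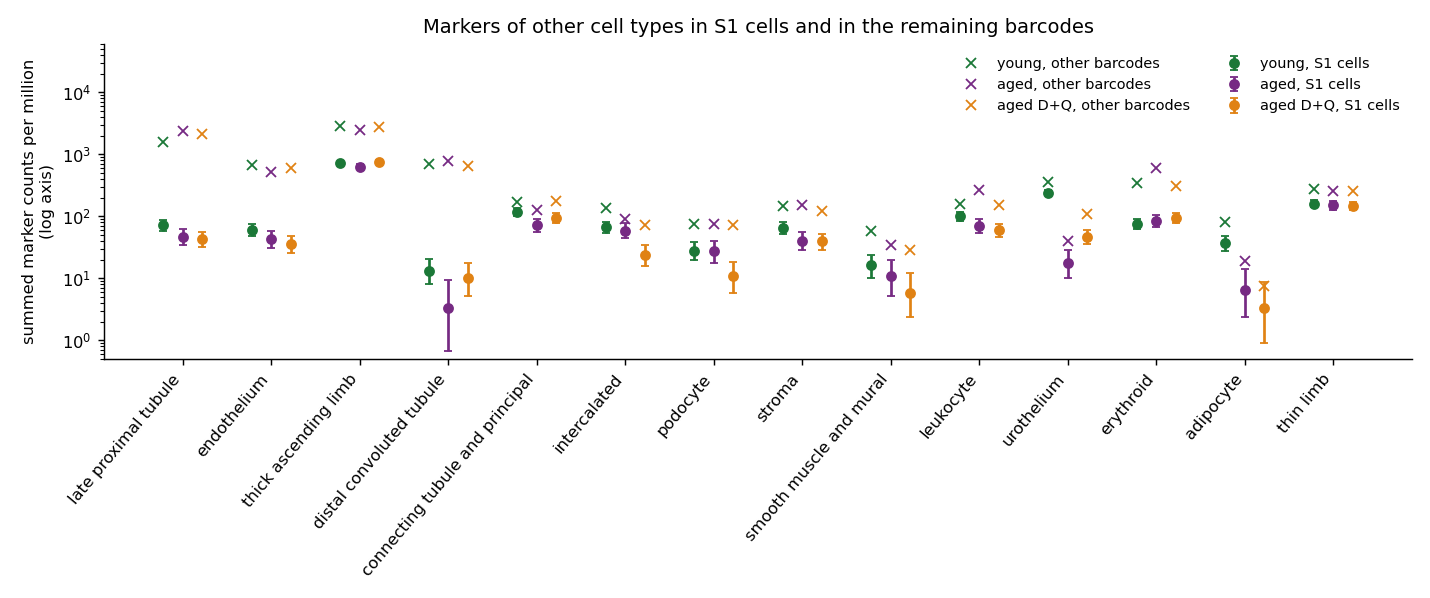
Summed level of the markers of 14 other cell types (CPM, log axis) in S1 cells (circles, with exact 95% Poisson intervals) and in the barcodes outside the S1 set (crosses), by library. Urothelial and adipocyte markers are highest in the young library both in S1 cells and outside, and thick ascending limb markers are the highest in S1 cells of all 3 libraries.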

How the data were processed

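Per the labels' protocols, 3′ single-cell libraries of collagenase-digested kidney were made with the MobiCube kit and sequenced on an Illumina instrument. The authors deposited one matrix of UMI counts per library, whole numbers without normalization, over 33696 genes, of which 52 rows share a symbol. No source used here names the aligner or how barcodes were picked. The submitters' processing notes list the genome builds GRCm39 and mm10 but not what each was for, and no coordinates are printed.

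S1 cells were selected from the counts, summed per library and scaled to their total. Ratios were formed for the 9470 genes with 30 counts in all and 5 CPM on average. The members and the 26 gene lists were chosen with earlier results of these data known. Genes were named by size of ratio, 10 in each direction (3 for aged D+Q over young), under the limits on CPM, counts and interval that the report states. Mitochondrial, ribosomal, haemoglobin, immunoglobulin and sex-linked marker genes, provisional names and rule genes were left out. From a list, members with the largest ratios were named, and transport genes by level, and further members were picked after their values were seen. Late proximal tubule, endothelial and all remaining barcodes under 30% mitochondrial counts were summed alike. Alternatives changed the marker and mitochondrial limits, the exclusion genes, depth, doublets, scaling (TMM, median of ratios), averaging and floors. Some genes that the rules would name are not reported here. The scripts were tested on simulated data. Tools were Python 3.11.15, numpy 2.4.6, pandas 2.3.3, scipy 1.17.1, scanpy 1.11.5, matplotlib 3.10.9, R 4.3.3 and edgeR 4.0.16, the latter for scaling factors.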

Additional observations from a re-analysis of the deposited data

Results flagged for a closer look

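Prlr, Cp and Csmd1, among the genes named or listed, were past 1.5-fold in opposite directions in S1 cells and in late proximal tubule barcodes, with intervals that excluded 0 in both. The difference between the sets was not tested, as each group is 1 library. For Prlr, the prolactin receptor, the log2 ratio of aged over young was -1.42 (-2.37 to -0.63) in S1 cells and 1.63 (1.23 to 2.05) in late barcodes, and that of aged D+Q over young was -1.26 (-2.05 to -0.56) in S1 cells and 1.11 (0.69 to 1.55) in late barcodes. Prlr had 64, 15 and 22 counts in S1 cells and was at 42.7, 132 and 92.3 CPM in late barcodes. For Cp (ceruloplasmin), a copper-carrying ferroxidase, aged over young was -1.19 (-2.12 to -0.40) in S1 cells and 0.96 (0.49 to 1.46) in late barcodes.

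For Csmd1 the ratio of aged over young was -1.55 in S1 cells and 0.71 in late barcodes, that of aged D+Q over aged 2.41 in S1 cells and -1.54 in late barcodes, and that of aged D+Q over young 0.87 in S1 cells and -0.83 in late barcodes. Of the 107 aged D+Q counts of Csmd1 in S1 cells, 45 were in 1 cell.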

How the results depend on the processing

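No paired analysis was possible because each group is 1 library and no animal links the groups. The share of S1 cells in young was 6.49% with 5 marker UMIs and 7.99% without Cyp4a14 and Cntnap5a as exclusion genes. With no exclusion genes the shares were 38.2, 39.0 and 36.2%, and after thinning they were 10.4, 12.0 and 11.3%. Counts of genes past 1.5-fold were 1069 higher and 1092 lower for aged over young, 838 and 843 for aged D+Q over aged, and 808 and 993 for aged D+Q over young. They were 480 higher and 453 lower for aged over young, 172 and 486 for aged D+Q over aged, and 260 and 637 for aged D+Q over young of 12064 genes with no exclusion genes, 3956 higher and 4746 lower for aged over young, 3807 and 3424 for aged D+Q over aged, and 3337 and 4563 for aged D+Q over young with no floor, and 540 higher and 278 lower for aged over young, 177 and 198 for aged D+Q over aged, and 328 and 230 for aged D+Q over young of 5265 genes with a floor of 30 CPM. Under the other 13 settings each of these counts stayed within 1.5 times. Leaving out cells with a urothelial UMI, or the highest cell of each gene, was chosen after seeing the data.

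List medians that turned sign were glucose transport for aged D+Q over aged (0.0084 without Cyp4a14 and Cntnap5a, 0.0051 with a mitochondrial limit of 50%), interferon genes (0.17 for aged over young with no exclusion genes; for aged D+Q over aged 0.0048 without urothelial cells and 0.0072 as a mean over cells), injury genes for aged D+Q over aged (-0.058 with no exclusion genes, -0.091 without urothelial cells), circadian genes for aged D+Q over aged (-0.026 with no exclusion genes) and the genes listed as female-biased, which include the male-biased Cyp2d9 (aged over young -0.023 when thinned and -0.46 with no floor, aged D+Q over young -0.27 with no floor). Csmd1 for aged D+Q over aged was -0.12 with no exclusion genes, and Cxcl10 for aged D+Q over young was 0.34 without urothelial cells. The cause was not tested. Other named genes kept their direction wherever a value could be had. Without its highest cell, Slpi was 4.10 for aged over young and -1.52 for aged D+Q over aged. With no exclusion genes, Apmap for aged D+Q over aged was 0.57, Nrxn3 for aged over young 1.05 and Dgkb for aged D+Q over aged -0.25. Upk3a, Psca, Upk1b and S100a6 gave no value without urothelial cells, as they are among the markers used. The limit of 3 counts stands for 2.10, 3.27 and 2.51 CPM, so a count of 0 does not show that a gene is absent.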

Other observations

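Of the 8 measured genes of segment S2, 1 passed 1.5-fold in aged over young, Slc22a6, which was lower. In aged D+Q over aged 0 passed. Over all genes, 11.3% were higher and 11.5% lower in aged over young, and 8.85% and 8.9% in aged D+Q over aged. In aged D+Q over young 2 of the S2 genes were higher and 1 lower, against 8.53% and 10.5% of all genes. Cyp4b1, a P450, was at 916, 1272 and 1461 CPM, with a log2 ratio of 0.67 (0.57 to 0.78) over young, and Osgin1 had 36, 24 and 46 counts, with 0.61 (-0.05 to 1.28). Slc22a12, the urate carrier URAT1, was at 191, 151 and 119.8 CPM, with -0.67 (-0.98 to -0.38). Igfbp7, a secreted binding protein counted among senescence genes, was abundant, at 1460.3, 1112 and 1241 CPM, with log2 ratios of -0.39 (-0.50 to -0.28) for aged over young and 0.16 (0.04 to 0.27) for aged D+Q over aged. Egfr, the receptor that Errfi1 inhibits, was at 246, 375 and 364 CPM, with 0.61 (0.39 to 0.83) for aged over young and -0.05 (-0.25 to 0.16) for aged D+Q over aged.

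Among kinases that dasatinib is known to bind, 8 of the 21 listed could be measured. Of these, 0 were at least 1.5-fold higher and 2 lower in aged over young, against 11.3% and 11.5% of all genes. In aged D+Q over aged the numbers were 0 and 1, against 8.85% and 8.9% of all genes. The members past 1.5-fold were low, Csk with 18, 6 and 11 counts and Pdgfra, a receptor of stromal cells, with 23, 6 and 4 counts. Abl1 had 73, 64 and 65 and Yes1 115, 75 and 112 counts. Of immediate early genes, Junb had 35, 10 and 16 counts, with -1.12 (-2.35 to -0.12) for aged over young, and Dusp1 was at 116, 91.7 and 124 CPM. In the clock list, Bhlhe40, a repressor, had 65, 15 and 34 counts, with -1.44 (-2.39 to -0.65) for aged over young, and Rora, an activator of Arntl, was at 388, 542 and 478 CPM, with 0.48 (0.31 to 0.66).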
